A study of Saccharomyces cerevisiae with 12 samples.

Results

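Mother cells lacking Spt3, Rad52 or Sac3 were compared with wild-type mother cells after 48 h of ageing. The comparison uses 4 of the 12 libraries of the series, 1 for each genotype, so no value below has a replicate check, and differences between single libraries are described without a test. Read signal in 25 kb windows placed every 5 kb was divided, window by window, by the wild-type 48 h signal. The table covers the 16 nuclear chromosomes and the mitochondrial genome in 2441 windows. Because all 3 ratios share the wild-type 48 h library as denominator, any peculiarity of that library enters all of them, and the signals of each library and each genotype's change since log phase are given beside the ratios.

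All strains were diploid Saccharomyces cerevisiae with the mother enrichment program, in which a Cre recombinase driven by the daughter-specific SCW11 promoter and fused to an estradiol-binding domain disrupts UBC9 and CDC20 in newborn daughters. They shared homozygous ade2, his3, leu2, ura3 and trp1 mutations and were listed as heterozygous at LYS2 and MET15. The mutants were homozygous for spt3::TRP1, rad52::TRP1 or sac3::TRP1, and wild type carried no TRP1 marker. Cells were grown in YPD medium, mothers were labelled with biotin, and 1 µM β-estradiol was added after 2 h for spt3 and wild type, 3 h for sac3 and 4 h for rad52. Aged mothers were then collected on streptavidin, whereas log phase cells were taken directly from the growing culture. In changes since log phase, age and this difference in collection cannot be told apart. The signal is an average over the cells of a culture. A change in a few cells and a smaller change in all cells cannot be told apart. The number of divisions reached at 48 h need not be equal between genotypes, and age and genotype cannot be told apart where it was not.

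The ribosomal DNA (rDNA) of budding yeast is a tandem array on chromosome XII, from which recombination excises extrachromosomal circles (ERCs) that carry a replication origin and no centromere and are retained by the mother. Rad52 is a core factor of homologous recombination and anneals complementary single strands. Spt3 is a subunit of the SAGA coactivator, and Sac3 is the scaffold of TREX-2, which links SAGA and transcribed genes to the nuclear pore. Mitochondrial DNA (mtDNA) is replicated separately from the chromosomes, at origins of which some contain a promoter for the mitochondrial RNA polymerase.

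The origin inside the rDNA unit and 2 mitochondrial origins are shown because the signals of rDNA and mtDNA differed most between the libraries and because these elements sit in the stretches described below. ARS1200-1 lies at chromosome XII 458991 to 459097 (R64, plus strand), between rDNA transcription units, and capitals mark its match to the ARS consensus sequence on the minus strand. ORI2 (Mito 32206 to 32501, plus strand) and ORI5 (Mito 82304 to 82600, plus strand) are printed with 25 bases before the annotated origin, and capitals mark the nonanucleotide ATATAAGTA of mitochondrial promoters. All were read from the RefSeq R64 genome.
ARS1200-1: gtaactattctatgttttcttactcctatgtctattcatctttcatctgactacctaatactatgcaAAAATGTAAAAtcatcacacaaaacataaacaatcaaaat
ORI2: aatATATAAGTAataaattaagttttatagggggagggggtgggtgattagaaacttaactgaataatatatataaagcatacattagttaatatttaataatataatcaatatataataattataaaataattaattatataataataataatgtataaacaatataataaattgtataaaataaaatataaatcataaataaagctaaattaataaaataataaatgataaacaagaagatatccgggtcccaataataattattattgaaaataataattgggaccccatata
ORI5: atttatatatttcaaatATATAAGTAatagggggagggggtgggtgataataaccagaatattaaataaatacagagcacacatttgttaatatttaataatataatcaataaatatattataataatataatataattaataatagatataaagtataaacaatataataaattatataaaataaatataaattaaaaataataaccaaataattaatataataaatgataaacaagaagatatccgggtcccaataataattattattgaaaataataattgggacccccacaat
A match to the ARS consensus on either strand was found in 0.636% of 112808 nuclear tiles of the same length. The nonanucleotide was found on either strand in 4.51% of 288 mtDNA tiles of 297 bases. That share gives no background for ORI6, which is annotated over 2701 bases. Of the 8 annotated mitochondrial origins, 4 (among them ORI2, ORI5 and ORI6) had the nonanucleotide on their own strand within the origin or the 25 bases before it, and 4 did not.

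The aged libraries each had between 5261601 and 12147987 reads. A full nuclear window typically took 7386 to 10182 of them, which leaves a counting error of 0.991% to 1.16%. That error covers counting only and says nothing about variation between cultures. At 48 h the median signal over the 2207 nuclear windows outside chromosome XII was 12349 in spt3, 12440 in rad52, 12531 in sac3 and 12320 in wild type. The median ratio to wild type there was 1.02 in spt3, 1.01 in rad52 and 1.01 in sac3, so the ratios below are relative to a nuclear genome near 1 in each mutant.

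The deleted genes were examined in bins of 5 kb, which were recovered from the overlaps of the windows. The bin holding most of SAC3 (YDR159W, chromosome IV 771877 to 775782) had a signal of 915 in sac3 against 2685 in wild type. The gene fills 62.5% of that bin, and the ratio to wild type was 0.341. This was 0.336 of its flanking ratio, the lowest of 2102 bins. The bin with RAD52 (YML032C, chromosome XIII 212515 to 213930) had 1574 in rad52 against 2172 in wild type, 0.684 of its flanking ratio and second lowest of 2102 bins. The bin with SPT3 (YDR392W, chromosome IV 1258696 to 1259709) had 3482 in spt3 against 4137 in wild type, 0.803 of its flanks and the fourth lowest. Each deletion was seen in its own mutant, and the other mutants had 0.921 to 1.06 of their flanking ratios at the 3 bins. The bin with TRP1, the deletion marker (YDR007W), had 2708 in spt3, 2439 in rad52 and 2577 in sac3 against 2150 in wild type. The rad52 library stood apart most at 2 further marker loci, chosen after their values were seen. The bin with LYS2 (YBR115C), a gene of lysine synthesis, had 2986 in rad52 against 2115 in wild type, while spt3 had 2241 and sac3 2372. Set against its flanks the rad52 ratio at LYS2 was 1.77 at 48 h and 1.72 at log phase. The bin with MET17, also named MET15 (YLR303W), had 2093 in rad52 against 2569 in wild type, or 0.697 of its flanking ratio. The rad52 strain therefore differed from wild type in signal at both loci already at log phase (0.752 of its flanks at MET17), although the strain list gives all 4 strains the same genotype there.

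The rDNA was the region with the largest difference between the mutants and wild type. Read over the 20 kb of the reference array and divided by the unit length of 9137 bases and by the nuclear median, the aged libraries held 213 rDNA units per haploid genome in spt3, 302 in rad52 and 149 in sac3, against 2660 in wild type. All 3 mutants were thus far below wild type, by 12.5-fold in spt3, 8.82-fold in rad52 and 17.9-fold in sac3. At log phase the same estimate was 158 units in spt3, 211 in rad52 and 123 in sac3, against 186 in wild type. Most of the difference was therefore absent in young cells, although sac3 was already at 0.662 of wild type and rad52 at 1.14. As a share of all signal, rDNA made up 12.1% of the aged spt3 library, 14.3% of rad52, 9.0% of sac3 and 58.3% of wild type.

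**Figure D1:**
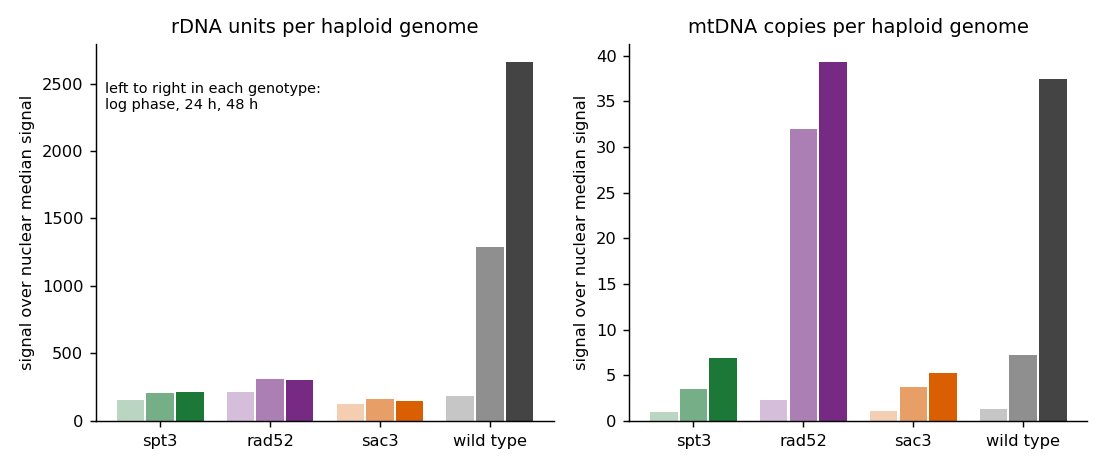
Estimated copies per haploid genome of the rDNA unit (left) and of mtDNA (right), as signal over the median nuclear signal, in log phase, 24 h and 48 h libraries of spt3, rad52, sac3 and wild type (1 library per bar, no error bars). At 48 h the rDNA bars of the mutants stand at 213, 302 and 149 units against 2660 in wild type, and the mtDNA bar of rad52 (39.3) is close to that of wild type (37.4) while spt3 (6.94) and sac3 (5.27) are lower.

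The 13 windows touching positions 450000 to 490000 of chromosome XII stood at 0.0867 of wild type in spt3, 0.121 in rad52 and 0.0637 in sac3 (medians). At 24 h they stood at 0.168 in spt3, 0.252 in rad52 and 0.135 in sac3, so the mutants were already low in rDNA by then. In bins of 5 kb the ratio was nearly constant over the array, 0.0791 to 0.0828 in spt3, 0.114 to 0.116 in rad52 and 0.0565 to 0.0570 in sac3 over the 4 bins that hold the 35S and 5S genes RDN37-1, RDN37-2, RDN5-1 and RDN5-2. The 5S genes RDN5-3 to RDN5-6 lie apart from the array, between copies of the asparaginase gene ASP3. The bin with RDN5-3 had 6045 in spt3, 5917 in rad52 and 5972 in sac3 against 14978 in wild type, ratios of 0.404, 0.395 and 0.399. The bin between them without an RDN gene (475001 to 480000) had 4124 in spt3, 4699 in rad52 and 4465 in sac3 against 4408 in wild type. Reads of identical 5S copies inside and outside the array cannot be told apart. The bin starting at 490001, which holds RRT15 next to MAS1, also had low ratios (0.111, 0.142 and 0.0860 in spt3, rad52 and sac3), and the following bin had 0.910, 0.960 and 0.923.

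Right of the rDNA the mutants parted. The 103 windows of chromosome XII from 495001 on, without the outer 60 kb of the arm, stood at a median of 0.910 of wild type in spt3, 1.18 in rad52 and 0.861 in sac3. In spt3 and sac3, 103 of 103 windows were below wild type. In rad52, 95 of 103 were above it. Of the 2207 nuclear windows outside XII, 688 in spt3 and 953 in sac3 were below wild type, and 1163 in rad52 were above it. Over the arm the ratios spanned 0.874 to 0.946 in spt3, 0.957 to 1.301 in rad52 and 0.769 to 0.932 in sac3. Neither spt3 nor sac3 thus overlapped rad52 in range there. Outside XII the 10th to 90th percentiles did overlap, at 0.949 to 1.06 in spt3, 0.817 to 1.13 in rad52 and 0.872 to 1.14 in sac3. At log phase the medians were 1.02 in spt3, 1.01 in rad52 and 0.991 in sac3, and at 24 h they were 0.997, 1.298 and 0.922. The rad52 ratio was thus higher at 24 h than at 48 h, whereas those of spt3 and sac3 were lower at 48 h than at 24 h. Set directly against the other mutants over the same windows, rad52 was 1.305 times spt3 and 1.38 times sac3.

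Over the whole ChrXIIr set of 118 windows starting at 490000 or later, which spans 290 protein-coding genes from RRT15 to the helicase gene YRF1-5, the medians were 0.906 in spt3, 1.18 in rad52 and 0.856 in sac3. The median signals were 14343 in spt3, 19008 in rad52 and 13668 in sac3, against 16014 in wild type. Relative to its own log phase, the median window gained 1.09-fold in spt3, 1.43-fold in rad52 and 1.05-fold in sac3, against 1.23-fold in wild type. All 4 genotypes thus had more ChrXIIr at 48 h than at log phase, with rad52 above wild type and spt3 and sac3 below it. The first window (490001 to 515000) includes the rDNA-like bin and was the lowest for each mutant, with signals of 39159 in spt3, 46871 in rad52 and 34125 in sac3 against 214192 in wild type. When signals were summed over non-overlapping windows including it, the rad52 value turned from above to below wild type (0.806). The highest rad52 window (740001 to 765000) had 19830 in rad52 against 15247 in wild type, with 13524 in spt3 and 12321 in sac3. The last 16 windows, towards the telomere, were lower, with medians of 0.758 in spt3, 0.989 in rad52 and 0.612 in sac3. The 86 windows left of the rDNA had medians of 0.990 in spt3, 0.972 in rad52 and 0.964 in sac3, close to the rest of the genome.

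**Figure D2:**
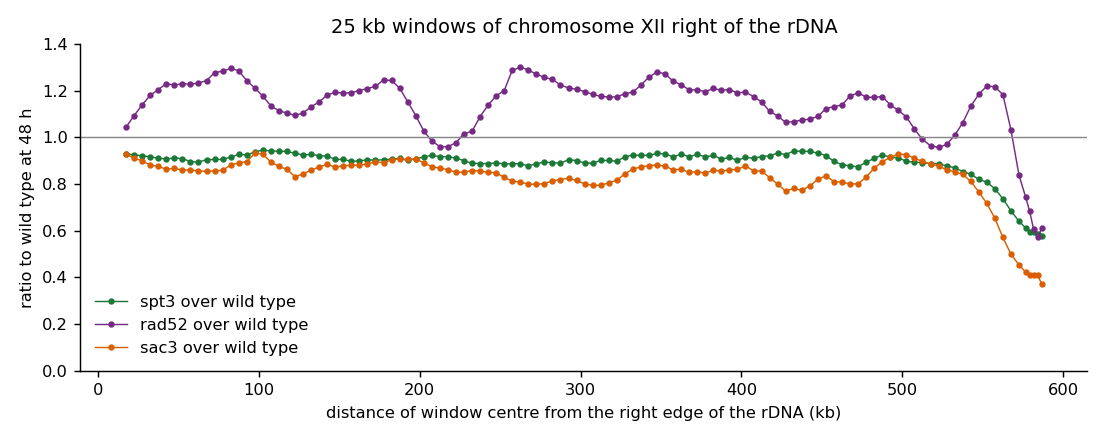
Ratio of signal to wild type at 48 h in 25 kb windows right of the rDNA, against the distance of the window centre from the right edge of the rDNA, for spt3, rad52 and sac3 (1 library each, neighbouring windows overlap). The rad52 points lie mostly above 1 (median 1.18 in the body of the arm), those of spt3 (0.910) and sac3 (0.861) below 1, and all drop towards the telomere.

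Chromosome ends were lower than in wild type in all 3 mutants. The outermost 10 to 15 kb of 31 chromosome ends (the left end of XII was left out, as its 5 kb bins carry counting noise from the rDNA) stood at a median of 0.671 of wild type in spt3, 0.768 in rad52 and 0.422 in sac3. Of the 2207 nuclear windows outside XII, 688 were below 1 in spt3, 1044 in rad52 and 953 in sac3. At the ends the ratio was below 1 at 31 of 31 in spt3 and sac3 and at 30 of 31 in rad52. The exception was the right end of XIV at 1.07. The ranges were 0.544 to 0.935 in spt3, 0.604 to 1.07 in rad52 and 0.257 to 0.694 in sac3. The lowest sac3 end was the left end of chromosome III, with 1959 in sac3, 4497 in spt3 and 4614 in rad52 against 7634 in wild type. At log phase the medians were 0.972, 0.944 and 1.03 in spt3, rad52 and sac3, and no end was past 1.2-fold lower.

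The low ratio reached farthest inwards in sac3. In 5 kb steps from the end, the median first came to 0.95 or more at 15 kb in rad52, 30 kb in spt3 and 40 kb in sac3. In the first 5 kb it was 0.645 in spt3, 0.712 in rad52 and 0.409 in sac3, and between 15 and 20 kb it was 0.858, 1.01 and 0.703. The time courses differed as well. Relative to its own log phase, the median end stood at 0.763 in spt3, 0.877 in rad52 and 0.449 in sac3 at 48 h, against 1.101 in wild type. At 24 h it stood at 0.580 in spt3, 1.04 in rad52 and 1.05 in sac3, against 1.06 in wild type. In spt3 the ends were thus already low at 24 h, and in sac3 they were low at 48 h but not at 24 h.

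**Figure D3:**
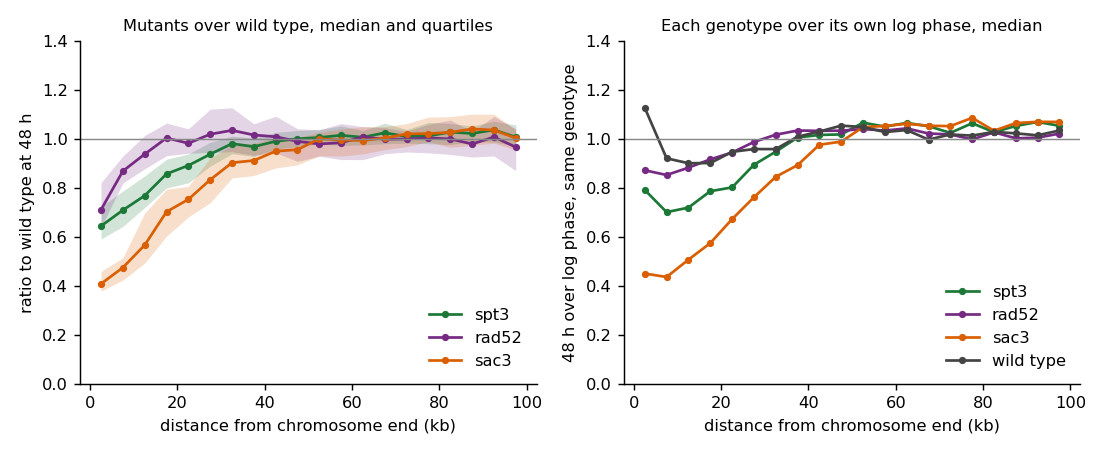
Left, ratio to wild type at 48 h in 5 kb bins by distance from the chromosome end, as the median (line) and quartiles (band) over 31 ends for spt3, rad52 and sac3. Right, the median of 48 h signal over log phase signal of the same genotype, including wild type. The sac3 line starts lowest, at 0.409 of wild type, and wild type is above its own log phase only in the outermost bin (1.13) within the first 35 kb.

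Ends that carry a Y′ element, a subtelomeric repeat that encodes the YRF1 helicases, differed from the other ends in wild type. At the 16 ends with Y′ the wild-type signal at 48 h was 1.18 times that at log phase and above it at 16 of 16, against 0.909 at the 15 ends without Y′. The median mutant end was below its own log phase at both kinds of end, with values of 0.776 and 0.676 in spt3, 0.893 and 0.832 in rad52 and 0.482 and 0.388 in sac3 (with Y′ first). Ratios to wild type at ends with Y′ were 0.636 in spt3, 0.714 in rad52 and 0.418 in sac3, and at ends without Y′ they were 0.733, 0.8501 and 0.468. In rad52, 14 of 16 ends with Y′ and 6 of 15 without were past 1.2-fold lower, while in spt3 the counts were 16 of 16 and 14 of 15, and in sac3 16 of 16 and 15 of 15. Reads from Y′ copies cannot be assigned to one end, so these ends are not independent of each other. The values by kind of end were not corrected for GC content, with which the rad52 ratio varied (below).

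Of the 2207 nuclear windows outside chromosome XII, 0 (0%) were past 1.2-fold higher than wild type in spt3 and 113 (5.12%) were past 1.2-fold lower. In rad52, 22 (0.997%) were past 1.2-fold higher and 269 (12.2%) lower. In sac3, 139 (6.3%) were higher and 190 (8.61%) lower. Here 1.2-fold lower means a ratio of 0.833 or less. With full-length windows only, 47 windows were lower in spt3 and 116 in sac3. The 22 windows higher in rad52 became 14 after re-centring on the nuclear windows outside XII, 12 without windows touching repeats and 6 when the ratio was divided by that at log phase. The low windows of spt3 and sac3 were at chromosome ends, with 113 of 113 and 184 of 190 centred within 40 kb of an end, where 249 of the 2207 windows lie. Those of rad52 lay in both places, 62 among the 249 windows within 40 kb of an end and 207 among the 1958 windows farther in, so they too made up a larger share of the end windows. All 3 mutants were past 1.2-fold lower in 45 windows, 45 of them within 40 kb of an end, and past 1.2-fold higher in 0. Of the 45, 36 formed 8 regions of at least 3 windows, each at a right end. The windows are cut short at right ends only, so more of them fall in the last 25 kb there than at left ends.

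Ranked by the geometric mean of the 3 ratios, the lowest of these shared regions lay on VII, V and XV, while the lowest for rad52 alone was the right end of IV (0.585) and for sac3 alone that of IX (0.377). The right end of VII from 1070001 holds the MAL1 maltose genes MAL13, MAL11 and MAL12, COS6, PAU12 and YRF1-3, and had a median signal of 5050 in spt3, 5488 in rad52 and 3190 in sac3 against 8023 in wild type. The right end of V from 555001 (TOG1 to YER190C-B, with YRF1-2) had 5523, 6312 and 3716 in spt3, rad52 and sac3 against 8986 in wild type. The right end of XV from 1065001 (YOR385W to YRF1-8, with PAU21) had 7466, 8163 and 5421 against 12196 in wild type. In each of them wild type was above its own log phase (1.18, 1.18 and 1.32 times) and every mutant below it.

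The lowest merged regions of single mutants were ends too, and all were right ends. In spt3 they were the right ends of XIII (PRE5 to PAU19), XV (FEX1 to YRF1-8) and V (YER187W to YER190C-B), with median ratios of 0.544, 0.590 and 0.602. In sac3 they were the right ends of III (YCR099C to YCR108C, with AAD3 and PAU3), XIII (ADH6 to PAU19) and VII (PAU12 to YRF1-3), with 0.345, 0.375 and 0.381. At the right end of XIII the mutants parted, with a median signal of 3582 in spt3 and 2623 in sac3 but 6178 in rad52, against 6580 in wild type, over the windows from 900001. In rad52 the lowest were the right ends of IV (PAD1 to YRF1-1), VII (PAU12 to YRF1-3) and XV (FEX1 to YRF1-8), with 0.606, 0.618 and 0.630. Windows are cut short at right ends only, so this ranking of merged windows favours right ends. Over the outermost stretch of each end, the left ends of III (0.257) and VII (0.310) were below the right end of III (0.358) in sac3. In rad52 the left end of III (0.604) was slightly below the right end of IV (0.606). In spt3 the right end of XIII (0.544) was still the lowest. The highest regions of spt3 stayed within 1.2-fold, at 1.103 on IV (NUP84 to UBX3), 1.098 on XIII (MSS11 to YMR181C) and 1.09 on VII (ARO8 to YGL188C-A).

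Away from the ends, rad52 had another profile than the other libraries, and spt3 followed wild type closely. Over windows more than 60 kb from an end, the SD of the log2 ratio to wild type at 48 h was 0.0412 in spt3, 0.168 in rad52 and 0.123 in sac3, against 0.0409, 0.0470 and 0.0529 at log phase. The signal itself became more uneven along the chromosomes with age in spt3, sac3 and wild type. The SD of log2 signal over these windows was 0.386 in spt3, 0.382 in sac3 and 0.386 in wild type at 48 h, against 0.238, 0.2197 and 0.241 in their log phase libraries. In rad52 it was 0.233 at 48 h against 0.213 at log phase, and 0.293 at 24 h.

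The rad52 ratio followed how much signal a window already had in young wild-type cells. When 1958 windows over 40 kb from an end were divided into 5 groups of 391 or 392 by wild-type log phase signal, the median rad52 ratio at 48 h was 1.12, 1.06, 1.01, 0.951 and 0.835 from the lowest group to the highest. For spt3 it was 1.02 in each group, and for sac3 it lay between 1.01 and 1.05. In the highest group the signal at 48 h over log phase was 1.24 in spt3, 1.03 in rad52 and 1.22 in sac3, against 1.17 in wild type. Across the windows, log2 of the rad52 ratio and log2 of wild-type log phase signal had a Pearson correlation of -0.877 (n = 1958 overlapping windows, which share libraries and base composition). It was -0.0141 for spt3 and -0.193 for sac3. GC content was correlated with the rad52 ratio less strongly, at -0.331 (-0.221 at log phase), with -0.000258 for spt3 and -0.175 for sac3. Its part in the result was not tested beyond a straight-line correction, after which 250 windows were past 1.2-fold lower in rad52.

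The 207 interior windows past 1.2-fold lower in rad52 had a median signal of 17485 in rad52, 22551 in spt3 and 22862 in sac3, against 22133 in wild type. Of these windows, 196 formed 28 regions of at least 3. The lowest, chosen after the values were seen, was on chromosome VII from 595001 to 650000 (YGR054W to RPL11B, a ribosomal protein gene), with 18115 in rad52, 24546 in spt3 and 25831 in sac3 against 25951 in wild type. Another on VII, from 245001 to 315000, holds CDC20, the anaphase activator gene that the enrichment program disrupts in daughters, and TAF6, a subunit shared by SAGA and TFIID. It had 18726 in rad52, 25566 in spt3 and 27741 in sac3 against 25462 in wild type. In both, rad52 was 1.08 and 1.11 times its own log phase, whereas wild type was 1.56 and 1.44 times. The 3 highest regions of rad52 were on XIV (720001 to 780000, NOG2 to AIF1, with the hexose transporter gene HXT17) at 1.26, and on II at 1.23 (CST26 to ORC2) and 1.22 (SUP45 to SEC66). There rad52 had 9158, 10256 and 9736 against 7202, 8357 and 7935 in wild type. In these regions the signal was below the nuclear median in every library.

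Outside XII, the chromosome median farthest from wild type was that of XVI in sac3, at 1.252 over all its windows. In sac3 XI had 1.12, and the remaining chromosomes had 0.970 to 1.02. Of the 139 windows past 1.2-fold higher in sac3, 132 were on chromosome XVI, 6 on XI and 1 on VII. In windows that do not overlap and lie over 40 kb from an end, the sac3 ratio on XVI had a median of 1.27 (range 1.08 to 1.42), with 34 of 34 windows above 1. Of all 2207 nuclear windows outside XII, 1254 were above 1 in sac3. On XVI the log phase median was 1.07 and the 24 h median 1.17, so the difference was there in part before ageing. On XI the log phase median was 0.979, the 24 h median 0.986 and the 48 h median 1.13, when 22 of 23 windows were above 1. The median signal of the interior of XVI at 48 h was 14739 in sac3, 12055 in spt3 and 12418 in rad52, against 12057 in wild type. That of XI was 14498 in sac3, 13754 in spt3 and 13016 in rad52, against 13444 in wild type. The highest sac3 regions all lay on XVI, at 1.402 (YPR014C to GLN1, glutamine synthetase), 1.39 (PET20 to ODC1) and 1.37 (SPO24 to YPR078C).

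**Figure D4:**
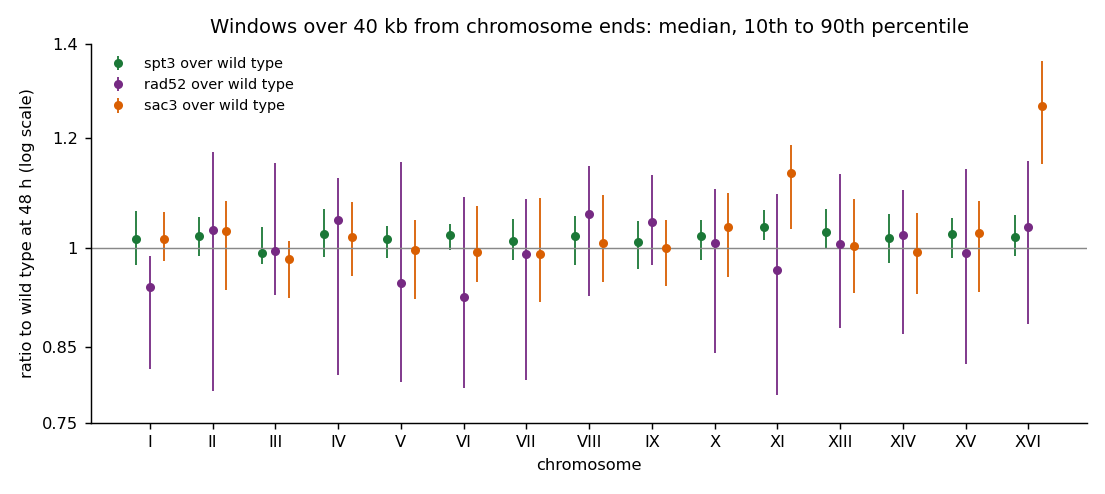
Median ratio to wild type at 48 h (points) with the 10th to 90th percentile of windows (bars, log axis) for 15 chromosomes, over 25 kb windows more than 40 kb from an end, for spt3, rad52 and sac3. Chromosome XVI stands out in sac3 at 1.26, the spt3 points lie near 1, and the rad52 bars are the widest on most chromosomes.

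Over all windows, the medians of the 15 chromosomes other than XII ranged from 0.984 (III) to 1.03 (XI) in spt3 and from 0.886 (VI) to 1.04 (IV) in rad52. In sac3 they ranged from 0.970 (III) to 1.252 (XVI). In rad52, chromosomes I (0.921), VI (0.886) and V (0.942) were the lowest, and their log phase medians were 0.979, 0.978 and 0.975. Their interiors also had the highest median wild-type log phase signal of all chromosomes, 15126, 14632 and 15001. After GC correction I, VI and V stood at 0.926, 0.930 and 0.940 in rad52. Without windows touching repeats they stood at 0.923, 0.923 and 0.979, so their order depended on the setting. The median signal of the interior of VI at 48 h was 14276 in rad52, 15422 in spt3 and 15274 in sac3, against 15242 in wild type. Windows that hold a centromere had medians of 1.02 in spt3, 1.04 in rad52 and 1.06 in sac3, against 1.00, 0.963 and 0.958 at log phase.

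Mitochondrial DNA was low in spt3 and sac3 and close to wild type in rad52. The 18 overlapping windows stood at a median of 0.189 of wild type in spt3, 1.06 in rad52 and 0.153 in sac3. As copies per haploid genome, the aged libraries held 6.94 in spt3, 39.3 in rad52 and 5.27 in sac3, against 37.4 in wild type. At log phase the values were 0.937 in spt3, 2.31 in rad52 and 1.07 in sac3, against 1.34 in wild type. At 24 h they were 3.45 in spt3, 32.0 in rad52 and 3.76 in sac3, against 7.22 in wild type. At 24 h rad52 was thus 4.43 times wild type, and by 48 h the ratio was 1.05. The gain since log phase was 7.41-fold in spt3, 17.1-fold in rad52 and 4.93-fold in sac3, against 28.0-fold in wild type. In all 4 genotypes mtDNA was higher at 48 h than at log phase, and the low ratios of spt3 and sac3 came with a smaller gain. The labels do not say whether any culture had lost respiratory function.

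The ratio was uneven along the mitochondrial genome in sac3. In 17 full bins of 5 kb it ranged from 0.0458 to 0.256, a 5.59-fold span, against 1.82-fold in spt3 and 1.38-fold in rad52. The 2 lowest bins lie in COX1, the split gene of cytochrome c oxidase subunit 1, and had 2031 and 2570 in sac3 against 44343 and 49252 in wild type. In the same bins spt3 had 5748 and 6771, and rad52 had 57016 and 60186. The bin with most of COB (40001 to 45000), cytochrome b, had 8127 in sac3, 13686 in spt3 and 103108 in rad52 against 82255 in wild type. At log phase the first COX1 bin had a sac3 ratio of 1.19, and at 24 h 0.240, so its low value was not there in young cells. The 2 COX1 bins also had the highest GC content of the 17 bins, 24.36% and 20.96%, followed by the COB bin with 19.42%. Their wild-type log phase signals, 1030 and 1361, were the lowest of the 17. The part of GC content in the mitochondrial ratios was not tested.

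The 4 highest sac3 bins were the 4 that hold an origin with the nonanucleotide, a split made after the values were seen. The bin with ORI2 had 22685 in sac3 against 88657 in wild type, the bin with ORI5 29344 against 137128, and the bin with ORI6 19751 against 99134. Their sac3 ratios were 0.256, 0.214 and 0.199. All 4 bins with such an origin lay between 0.199 and 0.256, and the other 13 bins lay between 0.0458 and 0.153. The ORI6 bin had the lowest GC content of all bins, 13.02%, while the bins with ORI2, ORI3 and ORI5 had 16.7%, 14.8% and 17.34%. Whether GC content has a part in the split was not tested. Only annotated origins were searched for this split, so the other 13 bins may hold the nonanucleotide elsewhere. ORI6 is annotated over 2701 bases and had 2 matches, while the other origins are 266 to 375 bases long. The gene OLI1 (46723 to 46953) lies inside the ORI6 annotation (45227 to 47927). Whether the ORI6 matches belong to the origin was not examined, so its place among the 4 rests on the annotation. Bins with the other origins had 0.153 at ORI1, the highest of the 13, 0.111 at ORI8 and 0.134 at ORI4. ORI7 shares its bin with ORI2. In spt3 the 4 bins had 0.192 to 0.236 and the other 13 had 0.130 to 0.194, so the ranges touched, and in rad52 they had 0.932 to 1.13 against 0.985 to 1.29. At log phase the ranges overlapped in sac3, at 0.657 to 1.22 with and 0.607 to 1.19 without such an origin. At 24 h they were 0.619 to 0.836 and 0.240 to 0.590.

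**Figure D5:**
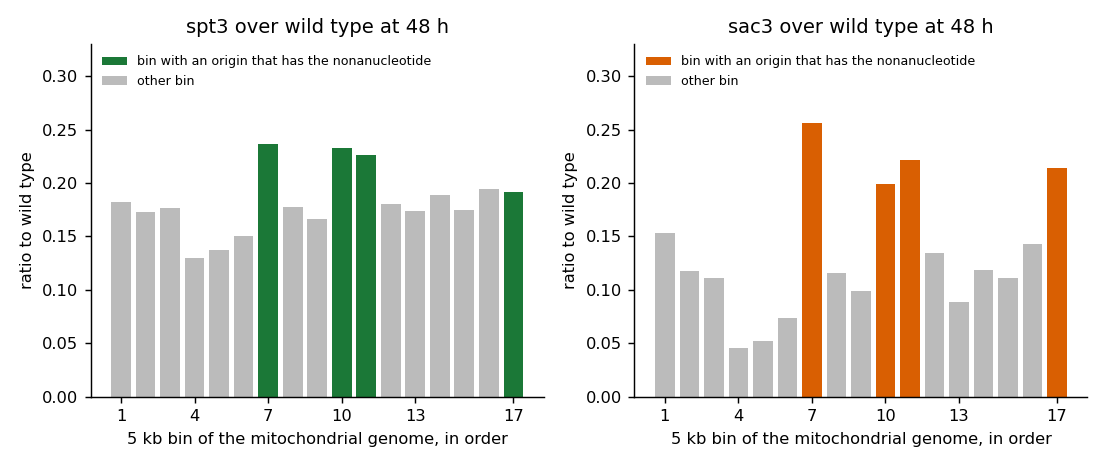
Ratio to wild type at 48 h in the 17 full 5 kb bins of the mitochondrial genome, in order, for spt3 (left) and sac3 (right), with coloured bars for bins holding an origin with the nonanucleotide ATATAAGTA (1 library each, no error bars). In sac3 the 4 coloured bars (0.199 to 0.256) are above all grey bars (up to 0.153), and the lowest bars are the COX1 bins. The bar of ORI6 is coloured by an annotation of 2701 bases.

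The gene lists followed these regions, since a gene takes the value of the windows around it. Each of the 14 rDNA genes was past 1.2-fold lower in all 3 mutants. Of 10 mitochondrial genes, all were lower in spt3 and sac3, and in rad52 none was past 1.2-fold either way. The subtelomeric families PAU (cell wall mannoproteins), COS, YRF1, FLO, HXT, MAL and AAD had 46 of 76 members lower in spt3, 15 of 76 in rad52 and 57 of 76 in sac3, with medians of 0.806, 0.922 and 0.612. Over all 5482 protein-coding genes outside XII, 193 were lower in spt3, 605 in rad52 and 368 in sac3, with medians of 1.02, 1.01 and 1.01. By family, 8 of 8 YRF1 genes were lower in spt3 and sac3 and 7 of 8 in rad52. All 6 MAL genes were lower in spt3 and sac3 and none in rad52, where they ranged from 0.840 to 1.00. The hexose transporter genes, of which many lie away from the ends, had 3 of 16 lower in spt3, 0 in rad52 and 7 in sac3.

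Genes of the pathways under study were examined in the same way. Each value is that of the 25 kb windows around a gene, so loss of a single gene moves it little. The deleted SPT3 stood at 1.01 in spt3, the deleted RAD52 at 1.04 in rad52 and the deleted SAC3 at 0.857 in sac3, so none counted as lower. The counts thus describe the surroundings of the genes and cannot show whether a gene itself was lost. In spt3, 0 of 20 SAGA genes, 0 of 5 TREX-2 genes, 0 of 15 rDNA barrier and silencing genes and 0 of 13 genes of mtDNA upkeep were past 1.2-fold, where 3.52% of all 5482 genes were lower and 0% higher. In rad52, 11.0% of all genes were lower, and each list below holds few genes. The lower ones were 3 of 20 SAGA genes (SPT3 at 0.786, SPT8 at 0.817 and TAF6 at 0.754), and 2 of 15 rDNA barrier and silencing genes (the phosphatase gene CDC14 at 0.787 and the silencing gene SIR4 at 0.809). They also held 2 of 13 genes of mtDNA upkeep (the packaging gene ABF2 at 0.793 and the ribonucleotide reductase gene RNR2 at 0.795), and 2 of 9 histone genes (HTA1 at 0.807 and HTB1 at 0.806). Of the homologous recombination genes 0 of 17 were lower in rad52, and of the TREX-2 genes 0 of 5. In sac3, 6.35% of all genes were higher, and 2 of 20 SAGA genes were, HFI1 (1.22) and SGF11 (1.21), both on XVI. These single genes were named for passing 1.2-fold, and share their windows with their neighbours. The tandem arrays of CUP1 (metallothionein) and ENA (sodium pumps) were close to wild type in spt3 and sac3 and somewhat higher in rad52. The CUP1 bin on chromosome VIII had a ratio of 0.978 in spt3, 1.14 in rad52 and 0.958 in sac3, and the ENA bins on IV had 1.04, 1.15 and 1.03.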

How the data were processed

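Per the labels and the methods, the authors sonicated DNA from agarose plugs, made NEBNext Ultra II libraries and sequenced them as single-end reads of 75 bases on a NextSeq instrument. Reads were trimmed with Trim Galore 0.6.6. The methods name Bowtie 2 for mapping and the submitters' processing notes list HISAT2 2.1.0, and which was used for the deposited table was not resolved. The deposited values are read signal, which the authors counted in 25 kb windows every 5 kb and scaled by size factors. The methods describe leaving windows with repeats out of the scaling, while the table holds windows over repeats too.

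Here each mutant's signal was divided by that of wild type at the same time, per window. All deposited values that were checked were whole multiples of a library's smallest step (100%, tolerance 0.1), which gave read depth. The highest values, among them most rDNA windows, were not checked. Bins of 5 kb were recovered from differences of overlapping windows. Regions named were the rDNA, ChrXIIr, the left arm of XII, mtDNA, the deleted genes, and the 3 highest and 3 lowest merged regions of each mutant beyond the 1st or 99th percentile, and shared regions past 1.2-fold. The members and gene lists were chosen with earlier results of these data known. The 5 kb bins, the split of mitochondrial bins, the interior rad52 regions and the marker loci were chosen after seeing the data. With 1 library per genotype no test was made, and the scripts were tested on simulated data. Python 3.11.15, numpy 2.4.6, pandas 2.3.3, scipy 1.17.1 and matplotlib 3.10.9 were used. Some items are not reported here.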

Additional observations from a re-analysis of the deposited data

Results flagged for a closer look

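The median over all 31 chromosome ends (outer 10 to 15 kb) lay below log phase at 48 h in the mutants and above it in wild type. The median end at 48 h stood at 0.763 of its own log phase in spt3, 0.877 in rad52 and 0.449 in sac3, against 1.101 in wild type. Wild type was above its log phase at 19 of 31 ends, with a median of 1.18 at the 16 ends with a Y′ element and 0.909 at the 15 without, so the medians lay on opposite sides of log phase at the ends with Y′ and on the same side at those without. The difference was not tested, with 1 library per genotype and time.

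The interiors of 2 chromosomes also moved apart. Chromosome XVI at 48 h stood at 1.15 of its own log phase in sac3, against 0.987 in wild type. Chromosome XI stood at 1.104 in sac3, against 0.993 in wild type. Neither difference was tested.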

How the results depend on the processing

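No paired analysis was possible because each genotype and time has 1 library, so no replicate could be left out or used as a block. When windows were averaged instead, the rDNA ratio was 0.179 in spt3, 0.195 in rad52 and 0.164 in sac3, ChrXIIr was 0.881, 1.13 and 0.819, mtDNA was 0.188, 1.06 and 0.147, and the left arm of XII was 0.938 in sac3. After re-centring on the nuclear windows outside XII, the rDNA was 0.0865 in spt3, 0.119 in rad52 and 0.0626 in sac3. For rad52 and sac3 this gave 1.17 and 0.842 on ChrXIIr, 0.962 and 0.948 on the left arm, and 1.05 and 0.150 for mtDNA. Summed over non-overlapping windows, the rDNA was 0.0844 in spt3, 0.118 in rad52 and 0.0610 in sac3, ChrXIIr 0.640, 0.806 and 0.593, the left arm 0.970, 0.932 and 0.924, and mtDNA 0.187, 1.06 and 0.143. The ChrXIIr sums include the window starting at 490001, and with them rad52 was below wild type, against above it for the median. Summed 5 kb bins gave 0.0804, 0.115 and 0.0567 for the rDNA and the same mtDNA values as the windows. Without windows touching repeats, ChrXIIr was 1.18 in rad52, and the left arm 0.998 in spt3 and 0.964 in rad52. After a straight-line GC correction, ChrXIIr was 1.14 in rad52 and 0.843 in sac3, and the left arm 0.987 and 0.957. Without the first window and the outer 60 kb, added after seeing the data, ChrXIIr was 0.861 in sac3.

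Counts of windows depended more on the settings. Past 1.5-fold, 32 windows were lower in spt3, 16 in rad52 and 118 in sac3, and 0 were higher in rad52 and sac3. With full-length windows only, also added later, 47 were lower in spt3 and 116 in sac3. The 22 windows higher in rad52 became 14 after re-centring, 12 without repeat windows and 6 when the ratio was divided by that at log phase. GC correction gave 1 higher window in spt3, and leaving out chromosomes XVI and XI left 1 in sac3. For the 63 named chromosomes and regions, 114 of 125 values stayed on the same side of 1. The largest move was 30.0%, at the right end of VII in rad52 after GC correction (0.618 to 0.804). The counting error of a full window was at most 1.16% at 48 h, and the spread between cultures is not known.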
